A study of Drosophila melanogaster with 16 samples.

Results

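The membrane trafficking genes named Rab, Sec and Vps were followed in Drosophila S2 cells after knockdown of the RNA-binding protein Imp. Members were taken by symbol, ignoring letter case, as every counted gene whose name starts with Rab, RabX, Sec or Vps and continues with a digit. This gave 55 of 9977 genes, of which 24 carried a Rab, 17 a Sec and 14 a Vps symbol. The Rab symbols comprised 22 small GTPases and the regulators rab3-GAP and rab3-GEF. S2 is a hemocyte-like line derived from fly embryos. Its cells were soaked in 40 μg/ml dsRNA against the imp coding region or, as the control, against firefly luciferase, a gene flies lack. They received a fresh dose of the same dsRNA each day and were harvested at day 3, and poly(A) RNA was sequenced from 3 libraries per treatment, with replicates made on different days. The methods name 2 dsRNA fragments for each target. For the sequenced libraries they name both imp fragments but only the first luciferase fragment. The labels used here do not tie a fragment to an imp dsRNA library. The study sequenced these cells to ask about transcripts of actin filament assembly, and the same comparison is given here for the trafficking genes.

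Vesicles carry membrane and cargo between compartments of the cell, and the 3 name families cover successive steps of that route. Secretory and membrane proteins enter the endoplasmic reticulum (ER) through the Sec61 channel and leave it in vesicles coated by the COPII proteins, such as sec23 and sec24. Rab GTPases mark the compartments: in the GTP-bound state they sit on a membrane and recruit motors and tethers, and each compartment carries its own set. The exocyst, built in part from Sec proteins, tethers vesicles at the plasma membrane, while the Vps proteins were first found in yeast as factors that sort proteins to the vacuole. They include the ESCRT machinery, which buds vesicles into endosomes, the retromer, which retrieves cargo from endosomes, and tethers of the late endosome and lysosome.

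Library totals ran from 1081882 to 5463535 counts. Imp dsRNA replicate 2 was the shallowest and imp dsRNA replicate 1 the deepest. The members took between 0.80% and 0.92% of the counts of a library. Of the hemocyte markers, serpent (srp) stood at 460 to 856 counts per 1000000 counts of the library (CPM, here unscaled) and the collagen gene Cg25C at 2353 to 5032. Transcripts of muscle myosin (Mhc), the germ line genes vas and nos, and the yolk protein gene Yp1 had 0 to 3 counts in a library. The neuronal gene elav, at 42.2 to 71.2 unscaled CPM, and the muscle factor Mef2, at 31.1 to 90.6, were present. In such bulk libraries, fewer cells of one kind and less RNA per cell cannot be told apart.

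The targeted transcript Imp (FBgn0262735) stood at 233, 324 and 455 CPM in imp dsRNA replicates 1, 2 and 3, and at 660, 738 and 814 CPM in the luciferase dsRNA replicates. The CPM values of Imp and of the members are after TMM scaling of the library sizes, a method that assumes most genes do not change. All 3 imp dsRNA libraries were below all 3 controls. The log2 fold change was −1.18 ± 0.18 (SE), and the adjusted p of edgeR's quasi-likelihood test (Benjamini-Hochberg over 6526 genes, replicate number as a block) was 0.113, above the threshold of 0.05. Without replicate 3 of both treatments the log2 fold change of Imp was −1.35, with an adjusted p of 1.57e-12 by the same test. The transcript was thus lower in every pair and still present in the treated cells.

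Of the 55 members, 50 had enough counts to be tested. The other 5 had between 1 and 53 counts over all 6 libraries, and all of them carried Rab symbols. Rab27, a secretory granule Rab in mammals, had 8, 2 and 5 counts in imp dsRNA replicates 1 to 3 and 23, 11 and 4 in the luciferase dsRNA replicates. RabX4, whose exons overlap those of the gene Kaz on the same strand over 9.25% of their length in the BDGP6 annotation, had 0 to 10 counts. Rab26 had 0 to 8 counts, and Rab3, a Rab of synaptic vesicles, had none in the imp dsRNA libraries and 0, 2 and 3 in the controls. A count of 0 over the 3 imp dsRNA libraries allows up to 3 counts of 7947380, or 0.377 unscaled CPM, and covers counting error only. The Rab3 exchange factor rab3-GEF had a single read, in imp dsRNA replicate 1. Rab3 and its exchange factor were therefore at or near the floor, whereas rab3-GAP, a regulator named for the same GTPase, was tested at 17.3 to 23.8 CPM.

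To compare one gene with another, levels were divided by the exon length of each gene, which gives CPM per kilobase. On that scale the mean levels of the tested members spanned a 258-fold range, from 606 for Sec61beta, the small beta subunit of the ER channel, to 2.35 for Rab23. The median member stood at 33.8 CPM per kilobase. Rab11, the GTPase of the recycling endosome, was at 603 CPM per kilobase and exceeded Sec61beta in 3 of 6 libraries, so no order could be given for these. Rab1, which acts between ER and Golgi, followed at 384, and Sec61alpha, the pore-forming subunit of the channel, at 377. Their order also differed between libraries. Sec61gamma stood at 252, Rab5, the early endosome GTPase, at 183, and Sec22, a SNARE of the ER-Golgi route, at 158. Of the 49 steps between neighbours in the whole order, 46 joined genes whose ranges over the 6 libraries overlapped. The separate steps included Rab11 over Rab1 and Sec61gamma over Rab5.

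**Figure D1:**
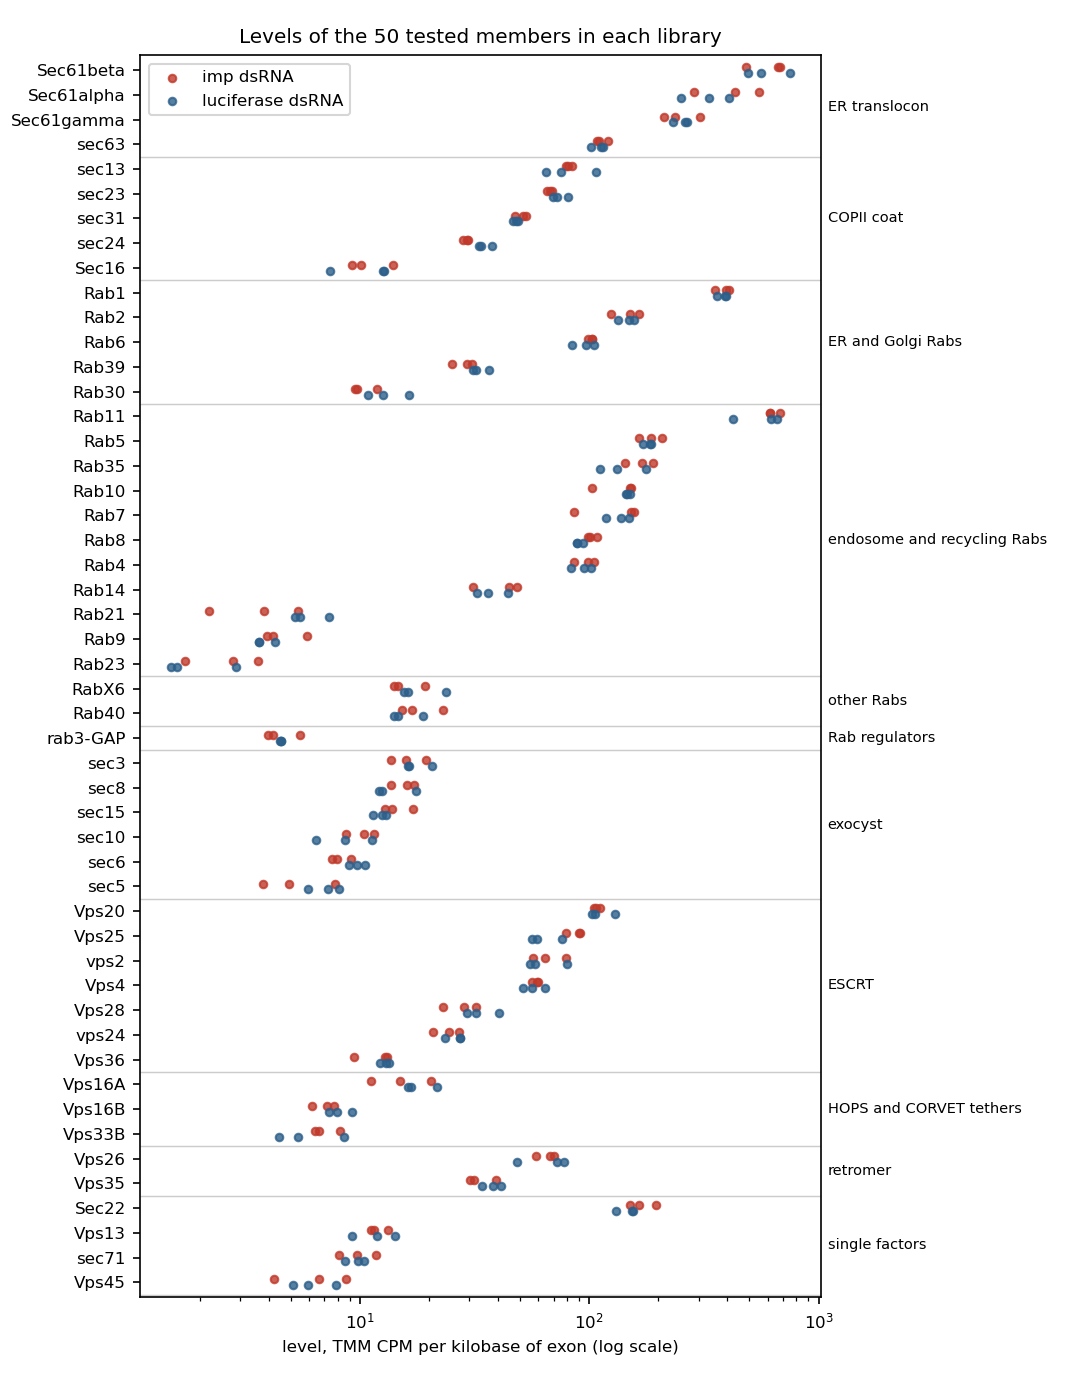
Level of each tested member in the 6 libraries, as TMM-scaled CPM per kilobase of exon on a log axis, grouped by role. Each point is 1 library, with imp dsRNA in red and luciferase dsRNA in blue; Sec61beta and Rab11 are highest at 606 and 603 and Rab23 is lowest at 2.35, and the colours overlap for most genes.

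Within the role groups, which hold fewer genes, the order of levels was steady in some and not in others. In the ER translocon, Sec61beta exceeded Sec61alpha and Sec61alpha exceeded Sec61gamma in 6 of 6 libraries, although the ranges overlapped across libraries. Their partner sec63, which links the channel to ER chaperones, was lower, at 111 CPM per kilobase. Among the COPII genes, sec13 at 81.9 and sec23 at 70.8 CPM per kilobase were ahead of sec31 at 49.1 and sec24 at 31.9, and Sec16, a scaffold of the ER exit sites, was lowest at 11.0. In the ESCRT group Vps20 led at 110 CPM per kilobase and Vps36 was lowest at 12.3, and Vps20 and Vps36 act in successive complexes of that pathway. The 6 exocyst genes sat close together, between 6.28 for sec5 and 17.1 for sec3, and the ranges of all neighbours there overlapped. Among the endosome and recycling Rabs, Rab5 exceeded Rab35 in 4 of 6 libraries and Rab35 exceeded Rab10 in 3 of 6. The retromer subunits Vps26 and Vps35 stood at 65.7 and 35.7 CPM per kilobase, in that order in 6 of 6 libraries. The plot of levels by library shows this grouping, with the translocon and the abundant Rabs to the right and the exocyst and the lysosomal tethers to the left.

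Counts were concentrated in few members. On the CPM scale, which is not divided by length, the 10 highest members held 62.2% of the summed CPM of the 50 tested members. Of the Rab GTPases tested, 18 in number, the 4 highest, Rab11, Rab1, Rab5 and Rab35, held 65.2% of the Rab total. The median of the members was 91.1 CPM, against 46.8 CPM over all 6526 genes. Summed over the members tested, the level was 8869 ± 219 CPM (SD, n = 3) after imp dsRNA and 8418 ± 57.9 CPM (SD, n = 3) after luciferase dsRNA, without overlap. As unscaled shares of the library counts the treatments did overlap. The members took 0.92%, 0.88% and 0.82% after imp dsRNA and 0.80%, 0.90% and 0.86% in the controls. All genes tested summed to 983080, 974830 and 1097300 scaled CPM after imp dsRNA. In the controls they summed to 1038700, 934750 and 979430. The member sums were not tested, and they weigh the abundant genes: Sec61alpha alone averaged 900 CPM after imp dsRNA and 703 CPM in the controls.

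No member was called after Imp knockdown. The call rule was an adjusted p under 0.05 in edgeR's quasi-likelihood test, and it called 0% of the 6526 genes, so it says nothing particular to the members. At an unadjusted p under 0.05, 1 of 50 members passed, against 2.88% of all genes. Limma-voom and DESeq2 with the same block also called 0 members. In the fitted values 31 members were higher and 19 lower, with a median log2 fold change of 0.034 for the members and −0.0067 for all genes. The members' changes ran from −0.60 for Rab21 to 0.46 for Vps25. Without replicate 1 of both treatments the members' median was −0.041. The medians of the differences within pairs were 0.036, −0.046 and −0.058 for pairs 1, 2 and 3, so the middle of the members did not keep 1 sign.

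The intervals show how large a change these libraries leave room for. For 47 of 50 members (94%), the 95% interval of the log2 fold change lay within ±1, a change of 2-fold either way, against 90.3% of all genes. The exceptions were Rab9, Rab21 and Rab23, Rabs of endosomes and, for Rab23 in mouse, of Hedgehog signalling, with the lowest mean CPM among the members tested. The fitted change was under 0.2 in size for 64% of members and 66.8% of all genes. The standard errors of the members had a median of 0.18 and ran from 0.15 to 0.40.

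**Figure D2:**
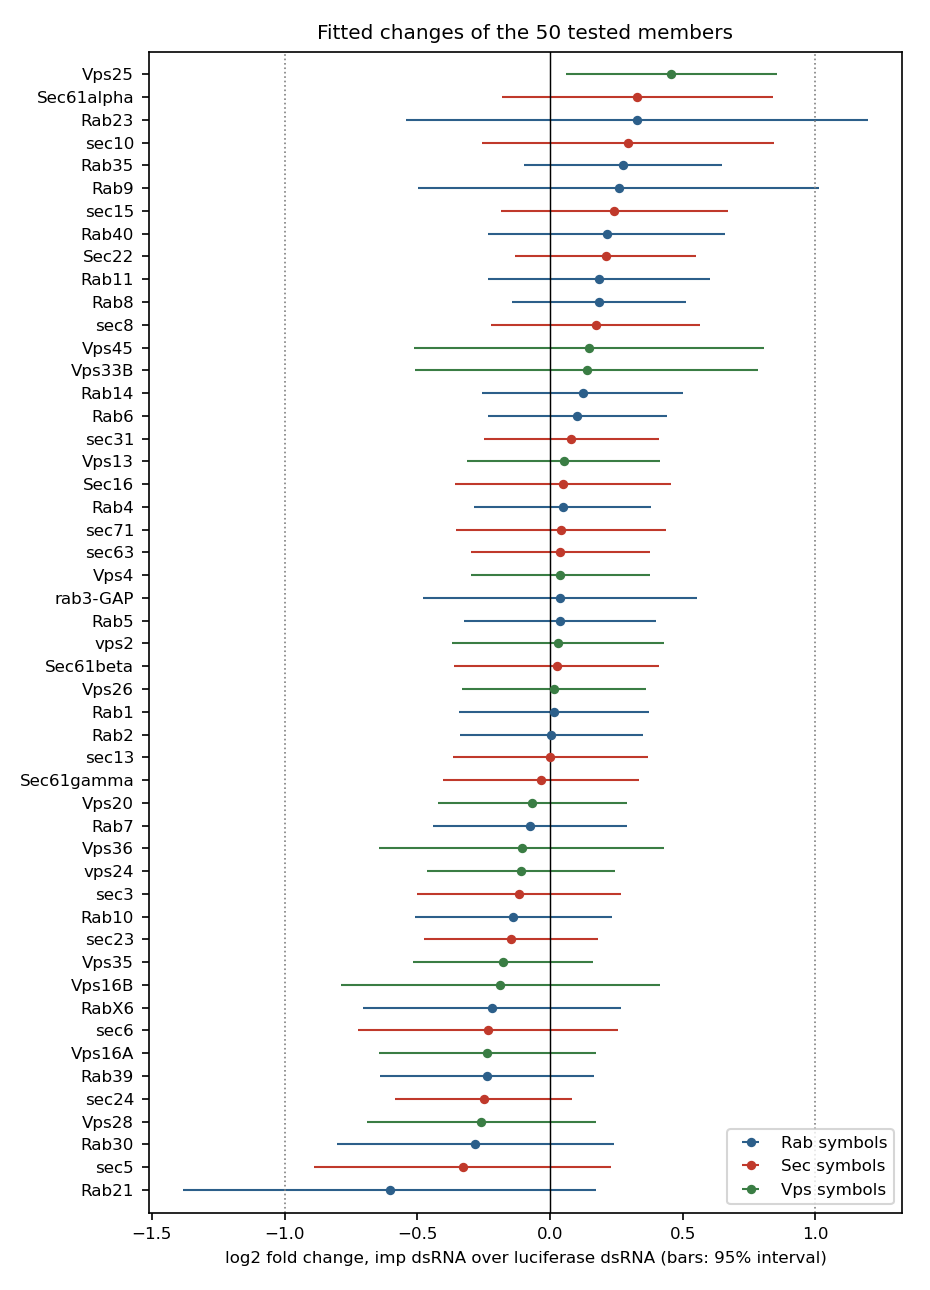
Fitted log2 fold change of each of the 50 tested members, imp dsRNA over luciferase dsRNA, with 95% intervals from edgeR as bars and dotted lines at ±1. Vps25 at 0.46 is the member whose interval lies wholly to one side of 0, and only the intervals of Rab9, Rab21 and Rab23 cross a dotted line.

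**Figure D3:**
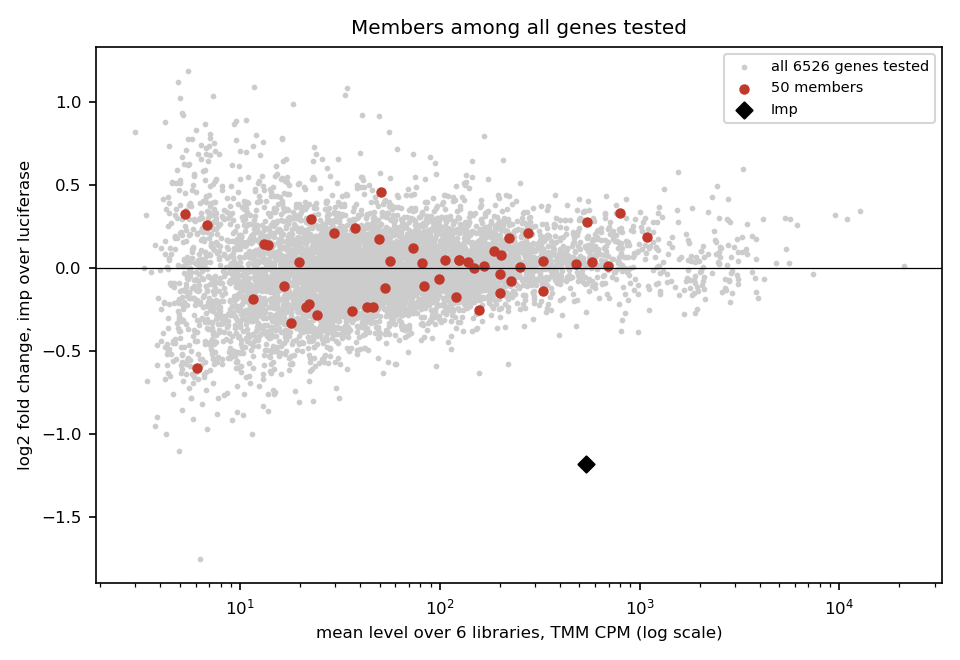
Log2 fold change of every gene tested against its mean level in TMM-scaled CPM (log axis), with the 50 members in red and Imp as a black diamond. The members lie inside the cloud of the other genes, from −0.60 to 0.46, and Imp lies at −1.18.

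Direction within pairs was also counted. All 3 pairs had the same sign for 17 of 50 members (34%), against 23.4% of all genes. Of the members, 4 were higher in every pair, against 11.3% of all genes, and 13 lower, against 12.2%, and these counts were not tested. The 3 imp dsRNA libraries did not overlap the 3 controls for 5 members, against 6.19% of all genes. These 5 were Vps25, Rab8, Rab39, sec23 and sec24, and none of them passed the adjusted threshold. Pair differences here are log2((imp + 1)/(luciferase + 1)) in CPM.

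Vps25 (FBgn0022027), a subunit of ESCRT-II, was measured at 53.7, 61.4 and 62.0 CPM in imp dsRNA replicates 1, 2 and 3, and at 40.0, 51.4 and 38.0 CPM in the controls. Every imp dsRNA library was above every control, with pair differences of 0.42, 0.25 and 0.69. The log2 fold change was 0.46 ± 0.18 (SE), with a 95% interval of 0.06 to 0.85. The adjusted p of edgeR's test was 0.999. None of the other ESCRT members tested had separate groups. Of the 7 in all, 3 were higher and 4 lower in the fit, with a median of −0.066. Vps28, a subunit of ESCRT-I, stood at 33.4, 27.1 and 37.7 CPM against 34.5, 37.8 and 47.2, lower in each pair but with overlapping groups. Its log2 fold change was −0.26 ± 0.20 (SE). The ATPase Vps4, which disassembles ESCRT-III, stood at 136, 144 and 143 CPM against 135, 124 and 154. Its log2 fold change of 0.039 ± 0.16 (SE) was within its error. Vps20, vps2 and vps24, subunits of ESCRT-III, had log2 fold changes of −0.066, 0.030 and −0.11, and Vps36 of ESCRT-II had −0.11.

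By group medians the COPII coat was among the least variable role groups. The median span between its day means was 0.12, and the median range of its pair differences was 0.26. Sec16 and sec13 varied more, with ranges of pair differences of 0.90 and 0.67. The gene sec24 (FBgn0033460, now Sec24AB), for a cargo-binding subunit, was at 147, 145 and 140 CPM after imp dsRNA and at 163, 166 and 186 CPM in the controls. It was lower in every pair, without overlap of the groups. Its log2 fold change was −0.25 ± 0.15 (SE, 95% interval −0.58 to 0.08). Its partner sec23, which activates the GTPase of the coat, was at 194, 185 and 190 CPM against 229, 205 and 197. The groups of sec23 were also separate, with a log2 fold change of −0.15 ± 0.15 (SE). The outer coat genes did not share the direction: sec31 and sec13, the latter also a nuclear pore component, had log2 fold changes of 0.081 and 0.0012. The level of sec31 varied least among the members, with a highest library 1.14 times the lowest. Sec16 was at 97.6, 135 and 89.4 CPM against 71.9, 123 and 124, with pair differences of 0.43, 0.13 and −0.47. Another Sec24 gene, gho (now Sec24CD), stood under an older name and was not a member. It was at 180.5, 150.8 and 153.8 CPM after imp dsRNA and at 178.4, 157.9 and 146.0 CPM in the controls. Its log2 fold change was 0.0087, so the lower values of sec24 were not shared by gho.

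The ER translocon split by pair. Sec61alpha (FBgn0086357) stood at 920, 608 and 1173 CPM after imp dsRNA and at 868, 706 and 536 CPM in the controls. Its pair differences were 0.08, −0.21 and 1.13, so the positive value came from pair 3. The log2 fold change was 0.33 ± 0.24 (SE, 95% interval −0.18 to 0.84) and became −0.059 without replicate 3 of both treatments. The other channel subunits were also above their control in pair 3, but below it in pairs 1 and 2. Sec61beta had pair differences of −0.17, −0.22 and 0.47, and its log2 fold change of 0.026 became −0.19 without replicate 3. Sec61gamma had −0.18, −0.29 and 0.38. By contrast sec63 was at 317 and 330 CPM in pair 3 and had a pair difference of −0.06 there. Summed over the 4 genes, the translocon held 2270 CPM in imp dsRNA replicate 3 and 1441 CPM in luciferase dsRNA replicate 3, the highest and the lowest of the 6 libraries. Some genes outside the members shared the signs of Sec61beta and Sec61gamma. Among translocon partners and signal recognition genes these were SsRbeta (−0.35, −0.20, 0.37), SrpRbeta (−0.20, −0.06, 0.48) and Gtp-bp (−0.16, −0.35, 0.12). TRAM (0.23, 0.22, 0.41), Srp54k (−0.13, 0.07, 0.22) and l(1)G0320 (0.02, −0.11, 0.10) did not share them. The hemocyte markers did not move together in pair 3. On the unscaled CPM scale, imp dsRNA replicate 3 was above luciferase dsRNA replicate 3 for the collagen IV genes Cg25C (5032 against 2566) and vkg (2340 against 1071) and for Pxn (84.9 against 38.7), and below it for srp (582 against 807) and ush (136 against 160). In unscaled CPM both collagens were also higher after imp dsRNA in pair 1 and in pair 2. In scaled CPM Sec61alpha was higher in pair 1 and lower in pair 2, and Sec61beta and Sec61gamma were lower in both. The part of these markers in the translocon values was not tested.

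**Figure D4:**
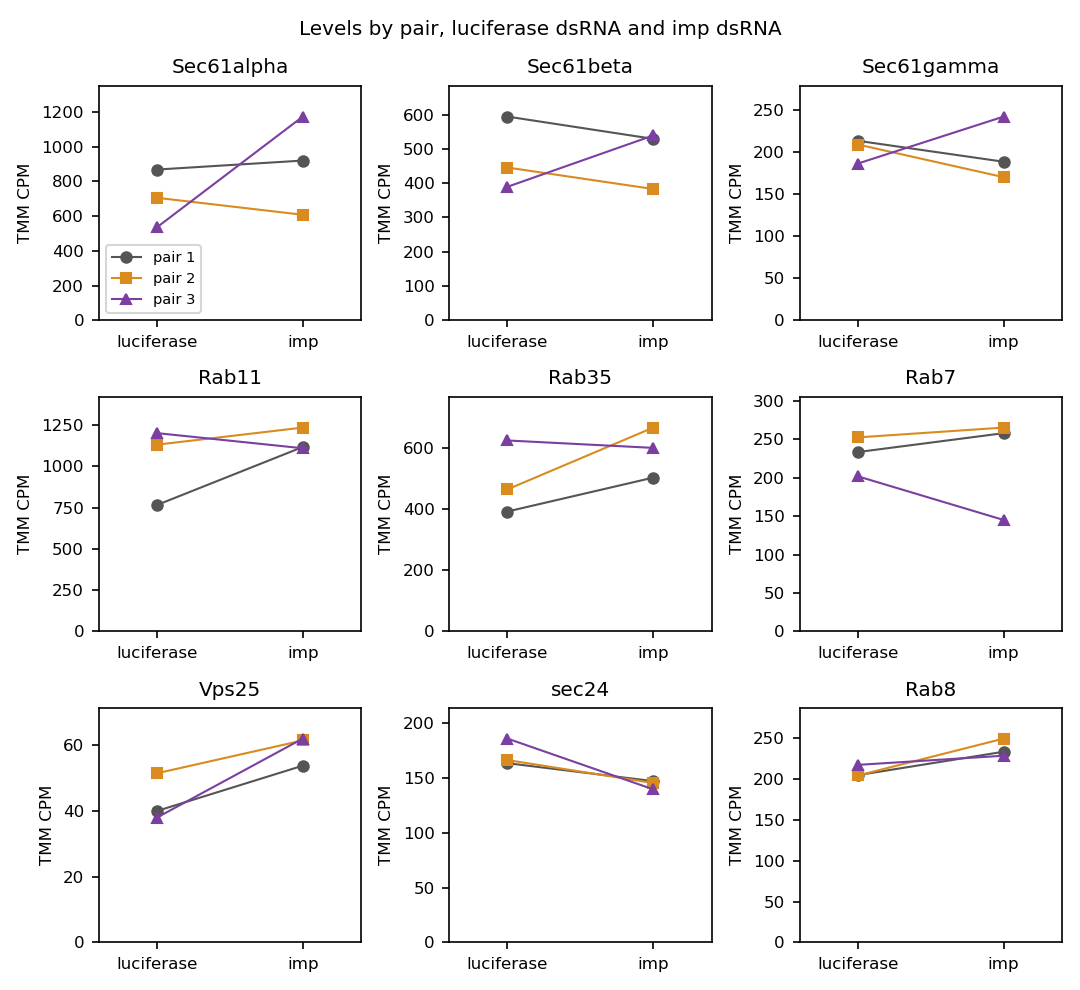
TMM-scaled CPM of 9 members, with each line joining the luciferase dsRNA and the imp dsRNA library of 1 pair and each vertical axis starting at 0. The 3 Sec61 subunits are well above their control in pair 3, Rab7 is below it there, and Vps25, sec24 and Rab8 differ one way in all 3 pairs.

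For the 5 Rabs of the ER and Golgi the log2 fold changes ran from −0.28 to 0.10. Rab1 stood at 736, 638 and 715 CPM after imp dsRNA and at 709, 653 and 704 CPM in the controls. Its log2 fold change of 0.014 ± 0.17 (SE) had a 95% interval of −0.34 to 0.37. Rab2, which acts in retrograde and Golgi traffic, and Rab6, a Golgi Rab, had log2 fold changes of 0.0051 and 0.10. Rab39 stood at 41.3, 43.3 and 35.3 CPM against 51.6, 45.0 and 43.8. The groups of Rab39 did not overlap, and its log2 fold change was −0.24 ± 0.19 (SE). Rab30 had −0.28, with pair differences of 0.13, −0.74 and −0.38.

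Of the endosome and recycling Rabs, 11 were tested, and 8 were higher and 3 lower in the fit. Rab11 (FBgn0015790) stood at 1118, 1235 and 1110 CPM after imp dsRNA and at 766, 1132 and 1202 CPM in the controls. Luciferase dsRNA replicate 1 was the low library, and the other 5 lay close together. The pair differences were 0.54, 0.13 and −0.11, and the log2 fold change of 0.19 ± 0.19 (SE) had a 95% interval of −0.23 to 0.60. Without replicate 1 of both treatments it was −0.0015. Rab5 (FBgn0014010) stood at 652, 584 and 519 CPM against 541, 587 and 577. Its log2 fold change was 0.038 ± 0.17 (SE, 95% interval −0.32 to 0.40), and its groups overlapped.

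Rab35, a Rab of fast recycling and actin organisation, stood at 504, 668 and 602 CPM against 393, 466 and 626. It was higher in pairs 1 and 2 by 0.36 and 0.52 and not in pair 3, at −0.06. The log2 fold change was 0.28 ± 0.17 (SE), with an adjusted p of 0.999 in edgeR's test over all pairs and of 0.174 without replicate 3. Rab8, which acts in delivery to the plasma membrane, stood at 233, 249 and 228 CPM against 205, 204 and 217. Its groups were separate and its log2 fold change was 0.18 ± 0.15 (SE). Rab4, another recycling Rab, was steady, with pair differences of 0.05, 0.04 and 0.05. Rab21 stood at 6.67, 2.71 and 4.71 CPM against 9.08, 6.43 and 6.81, and was lower in each pair. Its log2 fold change of −0.60 was the lowest of the members, but its standard error was 0.36 and its 95% interval ran from −1.38 to 0.17. It was also among the least abundant members, with the widest ratio of highest to lowest library, 3.35.

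Rab7 and Rab10 shared a low library. Rab7, the late endosome and lysosome Rab, stood at 258, 266 and 145 CPM after imp dsRNA and at 234, 253 and 202 CPM in the controls. Rab10, which directs basement membrane secretion in fly follicle cells, stood at 354, 353 and 239 CPM against 337, 340 and 352. In both, imp dsRNA replicate 3 was the lowest of the 6 libraries, the library in which Sec61alpha was highest. Their log2 fold changes were −0.076 and −0.14.

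The tethers and sorting complexes were mixed. Exocyst genes were 3 higher and 3 lower, from −0.33 for sec5 to 0.29 for sec10, with sec3, sec5 and sec6 lower in every pair and none of the 6 with separate groups. The exons of sec8 overlap those of CG2082 on the same strand over 2.65% of their length. Retromer Vps35 was lower in each pair, with differences of −0.08, −0.28 and −0.18 and a log2 fold change of −0.18 ± 0.16 (SE). Its partner Vps26 stood at 149, 178 and 172 CPM against 123, 183 and 198, with a log2 fold change of 0.015 ± 0.16 (SE). Vps16A, a core subunit of the lysosomal tether HOPS, had −0.24, and Vps16B and Vps33B, which bind each other in a related complex, had −0.19 and 0.14. Vps13, a lipid transfer protein, stood at 117, 121 and 139 CPM against 96.6, 149 and 125, with a log2 fold change of 0.051 ± 0.17 (SE). Among the single factors Sec22 stood at 263, 289 and 343 CPM against 268, 230 and 271, with a log2 fold change of 0.21 ± 0.16 (SE). Rab40 and RabX6 had log2 fold changes of 0.21 and −0.22, each with the same sign in all 3 pairs.

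Leaving out replicate 3 of both treatments made 1 call among the members. Without it edgeR's quasi-likelihood test called 58 of 6609 genes, or 0.878%. Rab27, which then passed the filter, was among them, at a log2 fold change of −2.25. It passed the filter through the controls alone, at 8.03 and 4.72 unscaled CPM in luciferase dsRNA replicates 1 and 2 against 1.46 and 1.85 in the imp dsRNA replicates. A gene kept in this way had to be lower after imp dsRNA, so its direction and its call are descriptions and no test of a change. The call rests on 10 counts in 2 imp dsRNA libraries and 34 in 2 control libraries. In the third pair Rab27 had 5 and 4 counts.

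More genes were called between days than between treatments. In the same fit the differences between the replicate days were called for 3.17% of genes at an adjusted p under 0.05, and for 14.6% at an unadjusted p under 0.05. Among the members the first count was 0 and the second 2. Rab7 was one, with day means of 7.95, 8.02 and 7.43 on the log2(CPM + 1) scale for days 1, 2 and 3. Vps16A was the other, at 5.87, 5.25 and 5.47. Their adjusted p-values in edgeR's test were 0.306 and 0.337. The median span between the highest and lowest day mean was 0.29 for the members and 0.39 for all genes, whose median level was also lower. Without replicate 3 the comparison of days 1 and 2 called 13.1% of genes and 2 of 51 members. These were Sec16, lower on day 1, with an adjusted p of 0.0042 in edgeR's test, and Vps16A, higher on day 1, with 0.0417.

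**Figure D5:**
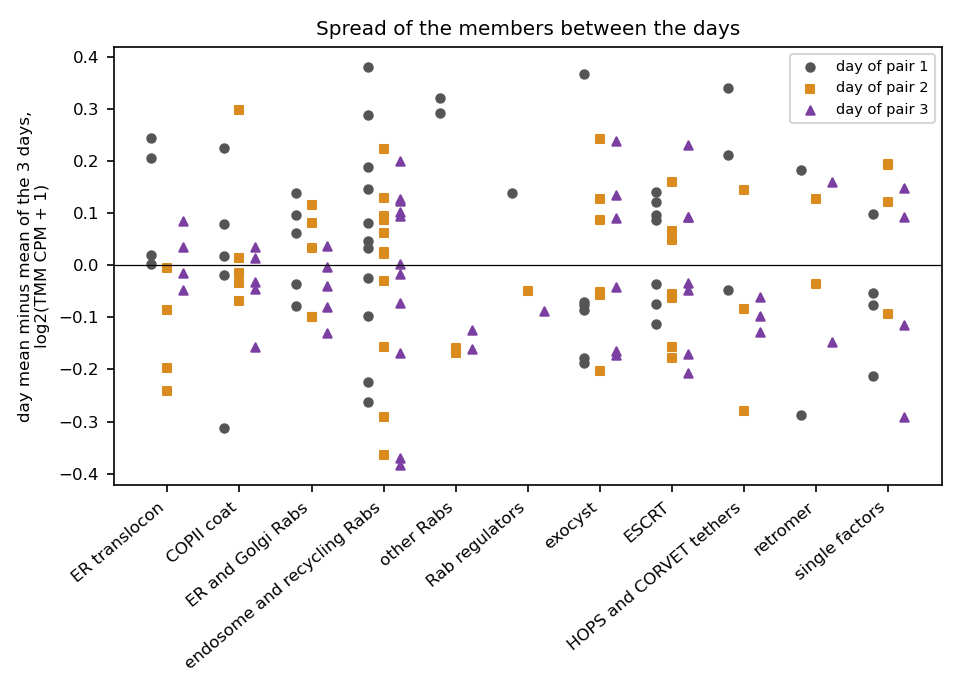
Mean of each member's 2 libraries on a day, minus the mean of its 3 days, on the log2(TMM-scaled CPM + 1) scale, by role group. Each point is 1 member on 1 day, and the points stay within about 0.4 of 0; Rab7 is among the low points of the third day.

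Genes that work with the members were given the same test. A list of 73 names of partners matched 56 counted genes, and 53 were tested. The tested genes were Rab regulators and effectors, Arf and Sar GTPases, golgins, COPI coat, SNAREs and their recycling factors, ESCRT, HOPS, translocon partners and signal recognition genes. Exocyst names were also listed, but no exocyst gene is among the 53. The symbol exo84 differs in letter case from the listed name and was not matched. That gene had a mean of 47.6 CPM and a log2 fold change of 0.29. None of the 53 was called after Imp knockdown, against 0% of all genes. At an unadjusted p under 0.05, 1 of 53 passed, against 2.88% of all genes. It was nuf, a Rab11 effector, with a log2 fold change of 0.60. The list's median was 0.015. Groups did not overlap for 4 of 53, against 6.19% of all genes. These were dor and epsilonCOP, with log2 fold changes of −0.31 and −0.13, and Chmp1 and ALiX, which act with ESCRT-III. Chmp1 stood at 95.8, 84.9 and 86.3 CPM against 76.3, 68.7 and 79.3, and ALiX at 75.0, 69.5 and 69.8 against 78.8, 82.0 and 76.9. The log2 fold changes of Chmp1 and ALiX were 0.25 and −0.14, and both were named after their values were seen. The main ESCRT-III subunit, shrb, had −0.10. For the days, 1 of 53 was called, against 3.17% of all genes: Syx1A, a plasma membrane SNARE, with an adjusted p of 0.0249 in edgeR's test.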

How the data were processed

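RNA-seq of S2 cells after imp or luciferase dsRNA was analysed, and the study's iCLIP, PAR-iCLIP, RIP-seq and input libraries were not used here. The authors mapped reads with BWA-PSSM to dm3 and yeast (a spike-in), kept confident hits on 1 gene in sense (Ensembl 72) and deposited raw counts per gene; the version of the mapper is not given in the sources used. Whether PCR duplicates were collapsed is not stated. The authors' comparison table (normalized means, fold changes and p-values) served only to pair identifiers with symbols. The row naming no gene held 0 counts. Library totals ran from 1081882 to 5463535 counts.

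The test was edgeR 4.0.16 under R 4.3.3, after filterByExpr and TMM, by quasi-likelihood with the replicate number as a block (2 residual degrees of freedom) and with Benjamini-Hochberg adjustment at 0.05 over 6526 genes. The block follows the supplement, which describes triplicates on different days and a paired dispersion estimate. Correlations of deviations in same-numbered libraries were 0.48, 0.36 and 0.30. No library repeated another: between replicates the chi-square over its degrees of freedom was 6.38 to 27.6. The fit was also run on simulated counts with the same dispersion for every gene, and no result here rests on that run. Intervals are the log2 fold change ± 2.16 SE. Exon lengths came from BDGP6, a later build, by identifier for 46 members and by symbol for 9, so no positions are given. Alternatives were no block, DESeq2 size factors, 2 other filters, DESeq2 1.42.0, limma-voom (limma 3.58.1), each replicate left out and a wider member list. Members shown in full are Rab5 and Rab11, the 3 highest of each name family, the 3 smallest p-values among rises and among falls, and those without overlap; others were chosen after their values were seen. The members, lists and tests were chosen with earlier results of these data known.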

Additional observations from a re-analysis of the deposited data

How the results depend on the processing

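The call of 0 members held in every alternative run except without replicate 3, where Rab27 was kept through the controls alone. The range over the replicates left out was 0 to 1. For all genes, 4 were called with no filter, 1 with DESeq2 and 0 to 58 with a replicate left out. Imp was at −1.18 with no filter (adjusted p 2.98e-06 by edgeR), −1.16 with DESeq2 (adjusted p 0.00018) and −1.35 to −1.02 with a replicate left out. Members at an unadjusted p under 0.05 numbered 2 with no filter, 0 with DESeq2, 0 to 2 with a replicate left out, and 3 of 69 when 20 genes with such names today were added, a choice made after seeing the data. The members' median ran from −0.041 to 0.015 with a replicate left out, and 0 to 2 members were called between days. Without the replicate block 0 genes and 0 members were called, the members' median was 0.023, Imp was at −1.13, and Vps26 reversed to −0.019. The fit with the block had also called 0 genes, so leaving the block out had no call to remove. With a replicate left out the log2 fold change reversed for 9 of the 17 named members: Rab1 (−0.013 to 0.040), Rab11 (−0.0015 to 0.34), Rab5 (−0.088 to 0.14), Vps13 (−0.076 to 0.22) and Vps26 (−0.13 to 0.13) without replicate 1, Vps4 (−0.048 to 0.11) and sec63 (−0.060 to 0.086) without replicate 2, and Sec61alpha (−0.059 to 0.60) and Sec61beta (−0.19 to 0.15) without replicate 3. The cause was not tested. Of 50 members, 23 changed sign under at least 1 of 9 alternatives and 27 did not. Depth limits Rab9, Rab21, Rab23 and the 5 members not tested.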

Other observations

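Another 20 counted genes carry Rab, Sec or Vps symbols in the present gene name table but stood in the files under older names. They were added after the data were seen. Of these, 19 were tested and none was called, against 0% of all genes. At an unadjusted p under 0.05, 2 passed, against 2.88% of all genes, and these counts were not tested. CG10144, now Vps8, a subunit of the early endosome tether CORVET, stood at 11.5, 13.5 and 17.3 CPM after imp dsRNA and at 7.99, 6.43 and 7.30 CPM in the controls. Its groups did not overlap, its pair differences were 0.48, 0.97 and 1.14, and its log2 fold change was 0.89 ± 0.30 (SE), with an adjusted p of 0.999 in edgeR's test. The gene chrw, now RabX1, stood at 52.3, 58.7 and 69.0 CPM against 37.1, 39.4 and 61.8, higher in each pair, with a log2 fold change of 0.41 ± 0.18 (SE).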
